A study of Mus musculus with 2 samples.

Results

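Osteopontin (Spp1), Gpnmb, Cd63, prosaposin (Psap), Trem2, Cd9, Itgax, cathepsin D (Ctsd) and galectin-3 (Lgals3) are 9 genes that mark lipid-associated macrophages or belong to the lysosome, of 19059 genes counted in each of 2 mouse liver libraries. They were chosen by name with earlier results of these same libraries known, among them the measured expression differences between the libraries in macrophages and other cells. Their differences between the libraries are therefore given as a description, and no test was made on them.

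AEG-1 (astrocyte elevated gene-1, encoded by Mtdh) was deleted in myeloid cells in the study to ask what it does in liver macrophages during steatohepatitis. The libraries are named here by their genotype labels, as AEG-1 ΔMAC-labelled and AEG-1 fl/fl-labelled. In the study, AEG-1 ΔMAC mice have floxed AEG-1 and LysM-Cre (Cre placed at the Lyz2 locus, which is active in macrophages, monocytes and neutrophils). AEG-1 fl/fl mice are floxed littermates without Cre. Mice of both groups were on a C57BL/6J background and were fed a high fat and high sugar diet (HF/HSD) from 7 weeks of age for 20 weeks. They were 27 weeks old when the livers were taken. Flash-frozen liver pieces were fixed and dissociated, and RNA was read in single cells with pairs of probes for each gene (10x Genomics fixed RNA assay), so every value is a count of probe molecules and levels are compared between cells and not between genes. Each group had 1 library, so no difference has a replicate check. Whether a library pools several livers, and the sex of its animals, are not given in the sources used here.

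The deposited matrices held 2581 cells and 79589511 counts in the AEG-1 ΔMAC-labelled library, with a median of 12742 counts per cell, and 3535 cells and 90440089 counts in the AEG-1 fl/fl-labelled library, with a median of 7686. Of these, 2571 and 3508 cells were kept, with 100 genes or more and no more than 10% of counts from mitochondrial genes. The libraries shared 10 cell barcodes, of which 0 were macrophages in both.

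Macrophages that take up lipid and dying cells in fatty liver and fat tissue switch on a set of genes around the lipid receptor Trem2, which signals through the adaptor Tyrobp. The same cells build up lysosomes, where cathepsins cut proteins and saposins, made from prosaposin, help enzymes to reach sphingolipids. In the liver, such cells lie near lipid-laden hepatocytes and fibrotic areas beside the resident Kupffer cells, and cholangiocytes, the cells that line bile ducts, are another known source of osteopontin.

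The deleted gene went against the labels. In macrophages, Mtdh had 257 counts in the AEG-1 ΔMAC-labelled library and 93 in the AEG-1 fl/fl-labelled library, or 139 and 20.8 counts per 1000000 of the summed macrophage counts (CPM). It was higher in the library labelled as deleted, with a log2 ratio of 2.75 (95% interval 2.40 to 3.10). Mtdh differed little in endothelial cells, stellate cells, hepatocytes and cholangiocytes, with log2 ratios of −0.12, −0.00, 0.12 and 0.02. Mtdh was also higher in the AEG-1 ΔMAC-labelled library in dendritic cells, at 1.70 (0.16 to 3.19) from 8 and 10 counts, and in T and NK cells, at 0.77 (0.02 to 1.51). The same held in cells that passed no gate and were not hepatocytes, at 0.31 (0.12 to 0.50). The interval of B cells, at 0.54 (−0.37 to 1.45), reached past 0, and neutrophils had 0 and 6 counts. Within the AEG-1 fl/fl-labelled library, Mtdh was at 20.8 CPM in macrophages, 57.3 in hepatocytes and 86.8 to 108 in endothelial, stellate, T and NK, B cells and cholangiocytes. Neutrophils were at 39.0 and dendritic cells at 74.5 CPM, from 6 and 10 counts. Within the AEG-1 ΔMAC-labelled library, macrophages, at 139 CPM, were above hepatocytes, at 62.2, and stellate cells, at 88.7, and under B cells, at 157. The cause was not tested. Where the Mtdh probes lie relative to the floxed part is not given in the sources used here. Lyz2, the locus that carries the Cre, was at 2029.5 CPM in macrophages of the AEG-1 ΔMAC-labelled library and at 1449 CPM in the other. Each direction below rests on the labels as deposited, as a log2 ratio of the AEG-1 ΔMAC-labelled library over the AEG-1 fl/fl-labelled library. Its interval, and that of each level and share, covers counting error only.

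Macrophages were the cells with at least 2 of the markers Siglec1, Tbxas1, Fyb and Lair1 and at least 10 counts of them per 10000, none of which is among the 9 genes. The AEG-1 ΔMAC-labelled library held 200 of them, or 7.78% of its cells (6.77% to 8.88%), and the AEG-1 fl/fl-labelled library held 539, or 15.4% (14.2% to 16.6%). Their median depth was close, 6041 and 6133 counts. Of the cells past the gate, 21 of 221 and 70 of 609 also passed the gate of another class and were left out as possible doublets, and no doublet caller was run. Near the cut, 49 and 108 of all cells past the gate, including those left out, lay between 10 and 15 marker counts per 10000. Just under it, between 5 and 10, lay 59 and 147 cells. The median was 23.0 and 27.3 per 10000 in macrophages, against less than 1 in hepatocytes.

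Macrophage genes outside the gate (10 of 10 counted, C1qb the most abundant) had a median of 107 per 10000 in macrophages of the AEG-1 ΔMAC-labelled library and 139 in those of the AEG-1 fl/fl-labelled library. Resident Kupffer cell markers, 7 of 7 counted and led by Cd5l, had medians of 108 and 84.3 per 10000 and summed to 13211 and 12739.9 CPM. Monocyte markers, 5 of 5 and led by Fn1, had medians of 6.95 and 5.24 and summed to 1259 and 1064 CPM. Of the monocyte list, Fn1 was higher in hepatocytes, at 1606 and 2017 CPM, than in macrophages, at 672 and 561 CPM, and the whole list had medians of 15.5 and 19.3 per 10000 in hepatocytes. Ccr2 of that list ran the other way, at 184 and 304 CPM in macrophages. Among single resident markers, Marco was at 223 and 70.5 CPM, and Timd4 at 127 and 66.5 CPM. Their part in the differences below was not tested.

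Markers of other classes in macrophages were low except for those of hepatocytes. Hepatocyte genes, 26 of 26 counted with Alb the most abundant, had medians of 425 and 239 per 10000 and summed to 69752 and 39925 CPM, so the AEG-1 ΔMAC-labelled library carried more hepatocyte RNA in its macrophages. The summed levels were 318 and 224 CPM for endothelial markers (9 of 9, led by Stab2), 339 and 252 for stellate markers (9 of 9, led by Ecm1) and 202 and 238 for neutrophil markers (5 and 6 of 7, led by Csf3r, with Ly6g at 0 in both and Cxcr2 at 0 in the first). The medians were 1.71 and 1.28 per 10000 for the endothelial, 1.42 and 1.64 for the stellate and 1.65 and 1.95 for the neutrophil list. Medians were 0 for the cholangiocyte, T and NK cell, B cell, dendritic cell and proliferation lists in both libraries. Their sums were 22.8 and 22.1 CPM for T and NK cell markers (9 and 8 of 9, led by Cd3g and Cd3e, with Klre1 at 0 in the second), 62.4 and 65.2 for B cell markers (7 of 8, led by Ighm and Cd79b, with Ms4a1 and Vpreb3 at 0 in turn), 22.2 and 29.5 for dendritic cell markers (6 of 6, led by Clec10a), and 123 and 181 for proliferation genes (5 of 5, led by Mki67). Erythroid genes (4 of 5, led by Hbb-bs, with Hba-a1 at 0) summed to 364 and 121 CPM, with medians of 0.907 and 0 per 10000. Cholangiocyte markers summed to 3.796 and 14.96 CPM and were led by Sox9, with Krt19, Cftr and Cldn7 at 0 in the first and above 0 in the second.

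Spp1, a secreted member of the set and a ligand of integrins and Cd44, had the largest difference in macrophages. It had 70 counts in 200 macrophages of the AEG-1 ΔMAC-labelled library, or 38.0 CPM (29.6 to 48.0), and 1364 counts in 539 macrophages of the AEG-1 fl/fl-labelled library, or 304 CPM (289 to 321). It was lower in the AEG-1 ΔMAC-labelled library, with a log2 ratio of −3.00 (−3.37 to −2.66). Most of its counts were in few cells. The 10 macrophages with the most Spp1 held 62.9% of its macrophage counts in the AEG-1 ΔMAC-labelled library and 61.7% in the AEG-1 fl/fl-labelled library. Over the other macrophages its level was 18.3 and 122 CPM, so the direction was the same outside those cells. For the other members, the 10 macrophages with the most of each held from 36.3% (Psap) to 57.2% (Gpnmb) of its counts in the AEG-1 ΔMAC-labelled library. In the AEG-1 fl/fl-labelled library they held from 20.7% (Psap) to 39.7% (Gpnmb). As 10 cells are a larger part of 200 macrophages than of 539, these shares cannot be compared directly between the libraries.

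Among the surface proteins, Trem2, the lipid receptor, had 161 and 1417 counts in macrophages of the AEG-1 ΔMAC-labelled and AEG-1 fl/fl-labelled libraries, or 87.3 CPM (74.3 to 102) and 316 CPM (300.0 to 333). Its log2 ratio was −1.86 (−2.10 to −1.62). Gpnmb, a glycoprotein of lysosomes and the cell surface, was at 551 CPM (518 to 586) and 2254 CPM (2211 to 2299), a log2 ratio of −2.03 (−2.13 to −1.94). Both were lower in the AEG-1 ΔMAC-labelled library, and their intervals in the 2 libraries did not overlap. Cd9, a tetraspanin that organises membrane proteins, was at 159 CPM (141 to 178) and 388 CPM (370.4 to 407), a log2 ratio of −1.29. Cd63, the tetraspanin of late endosomes and exosomes, was at 197 CPM (178 to 219) and 423 CPM (405 to 443), a log2 ratio of −1.10. Itgax (CD11c), an integrin chain shared with dendritic cells, was at 126 CPM (110.1 to 143) and 327 CPM (311 to 345), a log2 ratio of −1.38. These 3 were also lower in the AEG-1 ΔMAC-labelled library, by smaller ratios than Gpnmb and Trem2 in these sums, with no overlap of the intervals of their levels. The order changed with cells thinned to 3000 counts each, where Cd9 was at −1.87, Trem2 at −1.68 and Gpnmb at −1.64.

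Among the lysosomal proteins, Ctsd, an aspartic protease, was at 601 CPM (566 to 638) in macrophages of the AEG-1 ΔMAC-labelled library and at 1337 CPM (1304 to 1372) in those of the AEG-1 fl/fl-labelled library, a log2 ratio of −1.15 (−1.25 to −1.06). Psap, the precursor of the saposins, was at 1877 CPM (1815 to 1941) and 3439.9 CPM (3386 to 3495), a log2 ratio of −0.87 (−0.93 to −0.82). Both were lower in the AEG-1 ΔMAC-labelled library, Psap by less than 2-fold. Lgals3, a galectin that binds damaged lysosomes and is secreted by macrophages, was at 906 CPM (863 to 950.0) and 1186 CPM (1154 to 1218), a log2 ratio of −0.39 (−0.47 to −0.31). It was the member with the smallest difference in macrophages.

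In macrophages, 7 of the 9 members were over 2-fold lower in the AEG-1 ΔMAC-labelled library, where 2.86% of the 10998 genes with at least 20 summed counts were, and 0 were over 2-fold higher, where 3.66% of those genes were. Since the members were chosen with this difference known, nothing is read from the count. All 9 members had at least 20 counts, and their median log2 ratio was −1.29, beside −0.01 over all those genes.

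**Figure D1:**
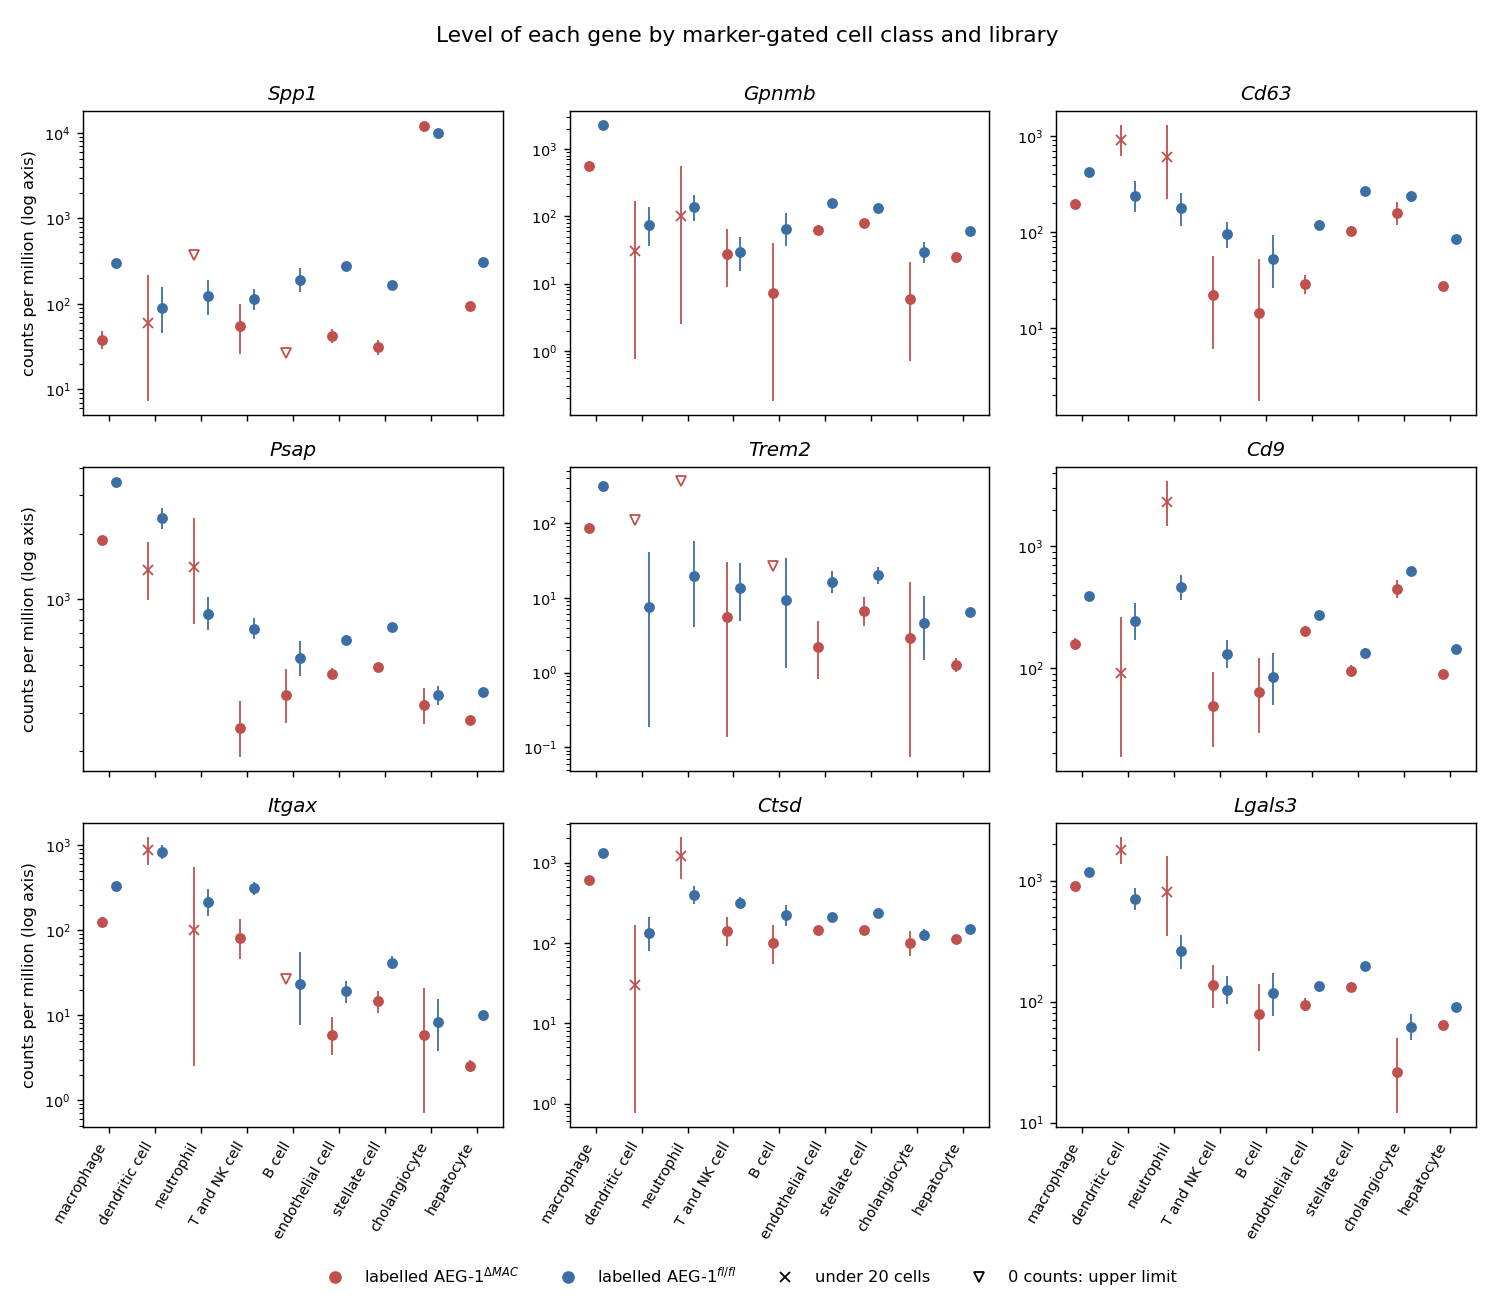
Level of each of the 9 genes in each of 9 classes, in CPM of the class's summed counts on a log axis, for the AEG-1 ΔMAC-labelled and AEG-1 fl/fl-labelled libraries. Points are sums over the cells of 1 library and bars are 95% Poisson intervals. Crosses mark classes with under 20 cells, and open triangles mark the upper limit where a class had no counts. Among classes with at least 20 cells, Trem2, Gpnmb, Psap, Ctsd, Lgals3 and Cd63 had their highest point in macrophages in both libraries. Spp1 and Cd9 had it in cholangiocytes, and Itgax in macrophages or dendritic cells. In the AEG-1 ΔMAC-labelled library, crosses lay higher for Cd63, Lgals3 and Itgax in dendritic cells and for Cd63, Ctsd and Cd9 in neutrophils.

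The same members were compared across 9 classes set by markers. Classes with under 20 cells, which were the 8 dendritic cells and 5 neutrophils of the AEG-1 ΔMAC-labelled library, were left out of the orders. Trem2 had the largest fold between macrophages and other cells among the members. It was at 87.3 CPM there and at 6.68 CPM in stellate cells, the next class, in the AEG-1 ΔMAC-labelled library, and at 316 and 20.1 CPM in the AEG-1 fl/fl-labelled library. Below macrophages, the intervals of neighbouring classes overlapped all the way down in both libraries. Against all other kept cells together, its level in macrophages was 42.6-fold and 30.9-fold higher.

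Gpnmb was also highest in macrophages, with 551 CPM in macrophages and 79.6 in stellate cells of the AEG-1 ΔMAC-labelled library, and 2254 CPM in macrophages and 156 in endothelial cells of the AEG-1 fl/fl-labelled library. The stellate and endothelial intervals overlapped in the former, as did the endothelial, neutrophil and stellate intervals from one neighbour to the next in the latter. Macrophages were 17.0-fold and 20.7-fold above all other cells. For Lgals3 macrophages were followed by T and NK cells at 137 CPM in the AEG-1 ΔMAC-labelled library and by dendritic cells at 707 CPM in the AEG-1 fl/fl-labelled library, with no overlap with macrophages in either. Macrophages were 12.3-fold and 8.24-fold above all other cells for Lgals3.

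Psap and Ctsd were counted in every class but were also highest in macrophages. For Psap the next class was stellate cells at 485 CPM in the AEG-1 ΔMAC-labelled library and dendritic cells at 2353 CPM in the AEG-1 fl/fl-labelled library, and for Ctsd it was endothelial cells at 146 CPM and neutrophils at 397 CPM. None of these intervals overlapped that of macrophages. Hepatocytes stood at 278 and 375 CPM for Psap and at 111 and 151 CPM for Ctsd, and shared overlapping intervals with cholangiocytes, at 325 and 363 CPM, for Psap.

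The tetraspanins were spread more widely. Cd63 was at 197 CPM in macrophages and 158 CPM in cholangiocytes of the AEG-1 ΔMAC-labelled library, with overlapping intervals, and at 423 CPM in macrophages and 268 CPM in stellate cells of the AEG-1 fl/fl-labelled library, without overlap. Cd9 was highest in cholangiocytes, at 448 and 623 CPM. After them came endothelial cells, at 203 CPM, and macrophages, at 159 CPM, in the AEG-1 ΔMAC-labelled library. In the AEG-1 fl/fl-labelled library neutrophils, at 462 CPM, and macrophages, at 388 CPM, came next, with intervals that overlapped those above them. Macrophages were thus 1.69-fold and 2.44-fold above all other cells for Cd9, and 5.91-fold and 3.89-fold for Cd63.

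Itgax was highest in dendritic cells of the AEG-1 fl/fl-labelled library, at 834 CPM (687 to 1003) in 20 cells. It was at 877 CPM (587 to 1259) in the 8 dendritic cells of the AEG-1 ΔMAC-labelled library, so its level there was close in the libraries, with a log2 ratio of 0.07 (−0.57 to 0.67), unlike that in macrophages. T and NK cells followed macrophages, at 82.0 CPM and 311 CPM, with intervals that overlapped those of macrophages in both libraries.

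The dendritic cells and neutrophils of the AEG-1 ΔMAC-labelled library were few, and some members ran the other way there. Cd63 had 30 and 32 counts in 8 and 20 dendritic cells, or 907 and 238 CPM. Cd9 had 23 and 71 counts in 5 and 44 neutrophils, or 2308 and 462 CPM. These were higher in the AEG-1 ΔMAC-labelled library, as were Lgals3 in both of these classes and Cd63 and Ctsd in neutrophils. Psap in neutrophils was at a log2 ratio of 0.71 (−0.20 to 1.51), with an interval that reached past 0. Each of these values in the AEG-1 ΔMAC-labelled library comes from 8 or 5 cells.

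**Figure D2:**
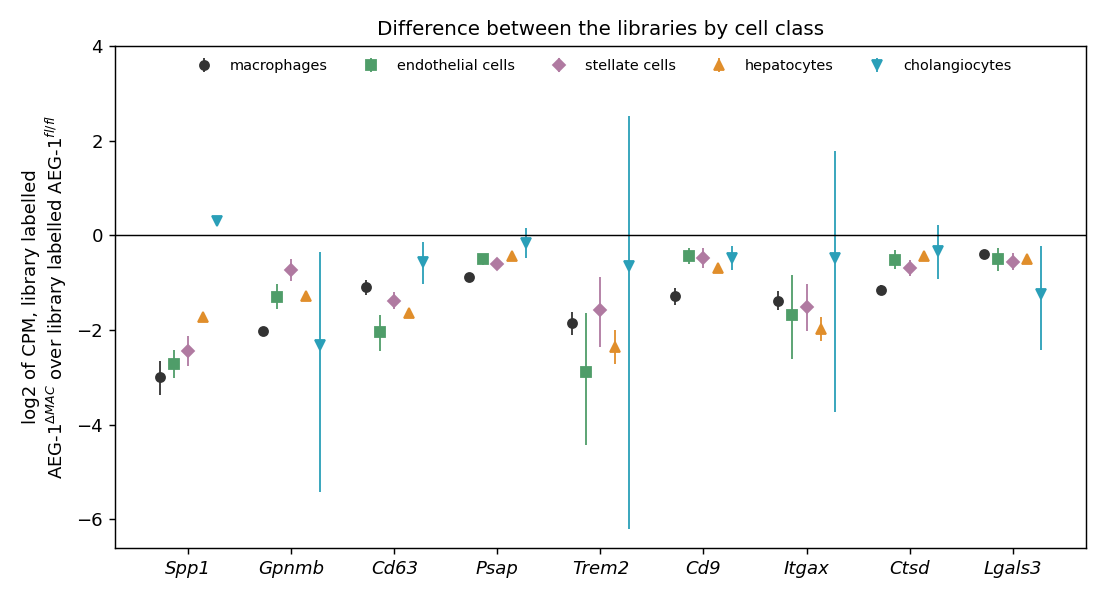
Log2 ratio of the AEG-1 ΔMAC-labelled library over the AEG-1 fl/fl-labelled library for the 9 genes in macrophages, endothelial cells, stellate cells, cholangiocytes and hepatocytes, with bars for 95% intervals of counting error; the line at 0 marks equal levels. All points of the 9 genes lie below 0 except Spp1 in cholangiocytes, at 0.29.

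The members were also lower outside macrophages. All 9 had log2 ratios below 0 in endothelial cells, stellate cells and hepatocytes, where 66.4%, 66.4% and 51.98% of all genes tested did. In endothelial cells 5 of 9 were over 2-fold lower, where 3.97% of 11089 genes were, and their median log2 ratio was −1.30 beside −0.19 over all those genes. In stellate cells 4 of 9 were, where 6.46% of 11607 genes were, with medians of −0.73 and −0.18. In hepatocytes 5 of 9 were, where 4.40% of 13060 genes were, with medians of −1.29 and −0.01. These contrasts are between the same libraries that the choice of members used, so nothing is read from these counts either.

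Levels outside macrophages were set beside those of macrophage genes in the same cells. In hepatocytes Trem2 was at 1.27 CPM in the AEG-1 ΔMAC-labelled library and 6.47 CPM in the AEG-1 fl/fl-labelled library, which is 1.45% and 2.05% of its macrophage level. Itgax was at 2.03% and 3.08% of its macrophage level, and Gpnmb at 4.47% and 2.67%. The macrophage genes Siglec1, Tbxas1 and Lair1 stood at 1.996%, 1.56% and 1.89% of their macrophage levels in hepatocytes of the AEG-1 ΔMAC-labelled library and at 1.83%, 1.58% and 1.81% in the other, and the Kupffer cell gene Clec4f at 4.13% and 3.13%. The first 3 of these are gate genes, which the gate itself keeps low in other classes. Gpnmb was above the gate genes in both libraries, and above Clec4f in the AEG-1 ΔMAC-labelled library only. Lgals3, at 7.05% and 7.59%, Cd63, at 13.8% and 20.0%, Psap, at 14.8% and 10.9%, Ctsd, at 18.5% and 11.3%, and Cd9, at 56.0% and 36.8%, were above all of these genes. For Spp1 the hepatocyte level was 250.1% and 102% of that in macrophages. In endothelial cells Siglec1, Tbxas1, Lair1 and Fyb stood at 5.28%, 2.44%, 5.05% and 4.83% of their macrophage levels in the AEG-1 ΔMAC-labelled library and at 6.001%, 3.08%, 3.91% and 4.28% in the other, and Clec4f at 12.9% and 13.4%. Trem2 (2.54% and 5.22%) and Itgax (4.71% and 5.82%) were within the range of the gate genes there, and Gpnmb (11.6% and 6.93%) and Lgals3 (10.4% and 11.3%) were above it and under Clec4f. In stellate cells the gate genes stood at 6.85% to 10.6% and at 4.31% to 5.97%, and Clec4f at 19.0% and 10.0%. Trem2, at 7.65% and 6.35%, was within the range of the gate genes in the former library, above it in the latter, and under Clec4f in both. Itgax, at 11.6% and 12.7%, and Lgals3, at 14.7% and 16.5%, were above the gate genes in both libraries and above Clec4f in the AEG-1 fl/fl-labelled library. Gpnmb, at 14.4% and 5.86%, was above the gate genes in the AEG-1 ΔMAC-labelled library only, and under Clec4f in both.

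For Cd63, hepatocytes had 27.3 CPM in the AEG-1 ΔMAC-labelled library and 84.8 CPM in the AEG-1 fl/fl-labelled library, a log2 ratio of −1.63 (−1.71 to −1.56). Endothelial cells had 28.5 and 118 CPM of Cd63, a log2 ratio of −2.05 (−2.44 to −1.68), and stellate cells 103 and 268 CPM, a log2 ratio of −1.38 (−1.56 to −1.20). Cd63 was thus lower in the AEG-1 ΔMAC-labelled library in all 3 of these classes. The intervals in hepatocytes and endothelial cells lay below that in macrophages (−1.27 to −0.94), and that in stellate cells overlapped it. Cd9 differed less, with 203 and 274 CPM in endothelial cells, a log2 ratio of −0.43 (−0.60 to −0.27), and 448 and 623 CPM in cholangiocytes, a log2 ratio of −0.48 (−0.74 to −0.22). In cholangiocytes the intervals of Psap and Ctsd reached past 0, at −0.16 (−0.47 to 0.15) and −0.33 (−0.92 to 0.22).

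Cells that passed no gate and were not hepatocytes, 593 and 833 of them, also carried the members. Gpnmb was at 72.8 CPM in such cells of the AEG-1 ΔMAC-labelled library and 412 CPM in those of the AEG-1 fl/fl-labelled library. Lgals3 was at 103 and 523 CPM, a log2 ratio of −2.35 (−2.47 to −2.23), which is far larger than its ratio in gated macrophages. The gate genes themselves differed there, Siglec1 being at 12.05 and 31.2 CPM and Tbxas1 at 9.67 and 32.3 CPM, and less so Lair1, at 9.50 and 17.1 CPM, and Fyb, at 29.9 and 39.1 CPM. Their part in these ratios was not tested. With the macrophage gate at 5 per 10000 in place of 10, an alternative chosen after seeing the data, the Lgals3 log2 ratio in macrophages was −0.75.

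Spp1 was highest in cholangiocytes, which were gated without it. It was at 12139 CPM (11772 to 12514) in 28 cholangiocytes of the AEG-1 ΔMAC-labelled library and at 9914 CPM (9728 to 10102) in 88 of the AEG-1 fl/fl-labelled library, a log2 ratio of 0.29 (0.24 to 0.34). Cholangiocytes had 320-fold the Spp1 level of macrophages in the AEG-1 ΔMAC-labelled library, a log2 ratio of 8.32 (7.98 to 8.68), and 32.6-fold in the AEG-1 fl/fl-labelled library, 5.03 (4.94 to 5.11). The gap between the cell types was wider in the AEG-1 ΔMAC-labelled library, where Spp1 was lower in macrophages. With a mean over cells the log2 ratios were 8.16 in that library and 5.73 in the AEG-1 fl/fl-labelled library, so the libraries then differed less. The difference in cholangiocytes was small and rests on few cells. The 10 with the most Spp1 held 78.7% of its cholangiocyte counts in the AEG-1 ΔMAC-labelled library and 36.7% in the other. Those 10 cells are a larger part of 28 cholangiocytes than of 88. In the former library, 1 cell held 1167 of the 4144 counts. Per cell the medians were 112 and 104 per 10000, and the log2 ratio of the means over cells, added after seeing the data, was 0.09. After cholangiocytes came hepatocytes, at 94.9 and 312 CPM, and in the AEG-1 fl/fl-labelled library the intervals of hepatocytes, macrophages at 304 CPM and endothelial cells at 279 CPM overlapped from one neighbour to the next. In the AEG-1 ΔMAC-labelled library hepatocytes were followed, with overlap, by T and NK cells at 54.6 CPM, endothelial cells at 42.5, macrophages at 38.0 and stellate cells at 31.0 CPM.

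Of all Spp1 counts in kept cells, cholangiocytes held 37.2% in the AEG-1 ΔMAC-labelled library and 28.1% in the AEG-1 fl/fl-labelled library. Hepatocytes held 54.4% and 54.7%, and macrophages 0.628% and 3.53%. Of the counts of all genes, cholangiocytes held 0.429% and 1.22%, hepatocytes 80.4% and 75.3%, and macrophages 2.32% and 4.97%. Cholangiocytes thus held far more of Spp1 than of all counts, and hepatocytes and macrophages held less. Hepatocyte Spp1 was uneven, since the 10 hepatocytes with the most Spp1 held 33.3% and 29.7% of the hepatocyte counts. A count of at least 10 was reached by 26 of 28 and 85 of 88 cholangiocytes, and by 1 of 200 and 19 of 539 macrophages. It was also reached by 92 of 1030 and 221 of 953 hepatocytes, which were deeper, at medians of 38659 and 44116 counts. By this raw count, not scaled for depth, high Spp1 was thus found in most cholangiocytes, in some hepatocytes and in few macrophages.

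Hepatocyte genes in macrophages stood at 36.7% of their hepatocyte level in the AEG-1 ΔMAC-labelled library and at 22.2% in the AEG-1 fl/fl-labelled library. At those shares the hepatocyte level of Spp1 comes to 34.9 of the 38.0 CPM in macrophages of the AEG-1 ΔMAC-labelled library and to 69.1 of 304 CPM in the other. Whether the hepatocyte RNA in macrophages was free RNA or came from doublets was not tested, nor was its part in their Spp1. The same reckoning gives 32.7 of 159 CPM and 31.6 of 388 CPM for Cd9, and 0.466 of 87.3 CPM and 1.43 of 316 CPM for Trem2. For Mtdh it gives 22.9 of 139 CPM, and 12.7 of the 20.8 CPM in the AEG-1 fl/fl-labelled library.

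Cholangiocyte RNA was measured by the keratin and junction genes of those cells. Spp1 in macrophages was at 0.313% of its cholangiocyte level in the AEG-1 ΔMAC-labelled library, beside 0.103% for Epcam, 0.561% for Krt7, 0% for Krt19 and 0% for Cldn7. In the AEG-1 fl/fl-labelled library Spp1 was at 3.07%, beside 0.540%, 0.723%, 0.221% and 0.151%. Those 4 genes had only 1, 2, 0 and 0 counts in macrophages of the AEG-1 ΔMAC-labelled library, and 13, 10, 4 and 2 in the other, where Spp1 was above each of them. In hepatocytes Spp1 was at 0.782% of its cholangiocyte level in the AEG-1 ΔMAC-labelled library, beside 0.237%, 0.186%, 0.256% and 0.225% for the same genes in turn, and at 3.15% in the other, beside 0.909%, 0.831%, 0.685% and 0.907%. The 10 macrophages richest in Spp1 in that library, with 28 to 298 Spp1 counts each, held 3.800 cholangiocyte marker counts per 100 Spp1 counts, in 3 of the 10 cells, beside 6.70 in the other macrophages and 29.6 in cholangiocytes. As those 10 cells were picked for their Spp1, the choice itself can lower that figure. In the AEG-1 ΔMAC-labelled library the 10 richest macrophages, with 44 Spp1 counts, held 2.27 per 100, the other 190 held 23.1, from 6 marker counts and 26 of Spp1, and cholangiocytes held 24.7. The 10 cells of the AEG-1 fl/fl-labelled library had a median of 8 of the 8 other members, at a median depth of 19468 counts, beside 6 of 8 and 6033 counts in the other macrophages.

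Shares of cells with at least 1 count were compared after each cell was thinned to 3000 counts, which left out 33 of 200 and 67 of 539 macrophages for being shallower. Trem2 was counted in 21.0% (15.1% to 27.9%) of macrophages in the AEG-1 ΔMAC-labelled library and 47.7% (43.1% to 52.3%) in the AEG-1 fl/fl-labelled library, and in 0.777% and 3.04% of hepatocytes. Without thinning these shares were 33% and 65.3% of macrophages, at median depths of 6041 and 6133 counts, and 6.60% and 21.5% of hepatocytes, at 38659 and 44116 counts. Gpnmb was counted in 34.1% and 66.1% of thinned macrophages (43% and 70.9% without thinning) and in 5.53% and 12.2% of thinned hepatocytes. Both genes were found in far more macrophages than hepatocytes at equal depth, and in more macrophages of the AEG-1 fl/fl-labelled library.

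Itgax was counted in 18.0% and 39.2% of thinned macrophages (28.5% and 53.2% without thinning) and in 1.17% and 2.94% of hepatocytes. Cd63 was counted in 28.7% and 48.9% (39.5% and 64.6%), with 6.02% and 22.5% in hepatocytes, and Ctsd in 60.5% and 82.4% (76% and 86.8%), with 28.6% and 35.2%. Each was more widespread in macrophages of the AEG-1 fl/fl-labelled library. Psap was near its ceiling, at 92.8% and 98.7% (97% and 98.7%), with 54.9% and 62.9% in hepatocytes. Lgals3 was counted in 73.7% (66.3% to 80.2%) and 74.6% (70.4% to 78.4%) of thinned macrophages (81% and 84.0%), against 14.2% and 21.2% of hepatocytes, so its share of cells was close in the libraries while its CPM was lower in the AEG-1 ΔMAC-labelled library. Cd9 was counted in 22.2% and 49.8% (44.5% and 65.3%) of macrophages, but in 21.5% and 33.1% of hepatocytes and 43.5% and 49.0% of endothelial cells, so its share in macrophages of the AEG-1 ΔMAC-labelled library was close to that of hepatocytes. Spp1 was counted in 9.58% and 27.8% (18% and 41.9%) of macrophages and in 12.7% and 28.3% of hepatocytes, so its share in macrophages was no higher than in hepatocytes.

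**Figure D3:**
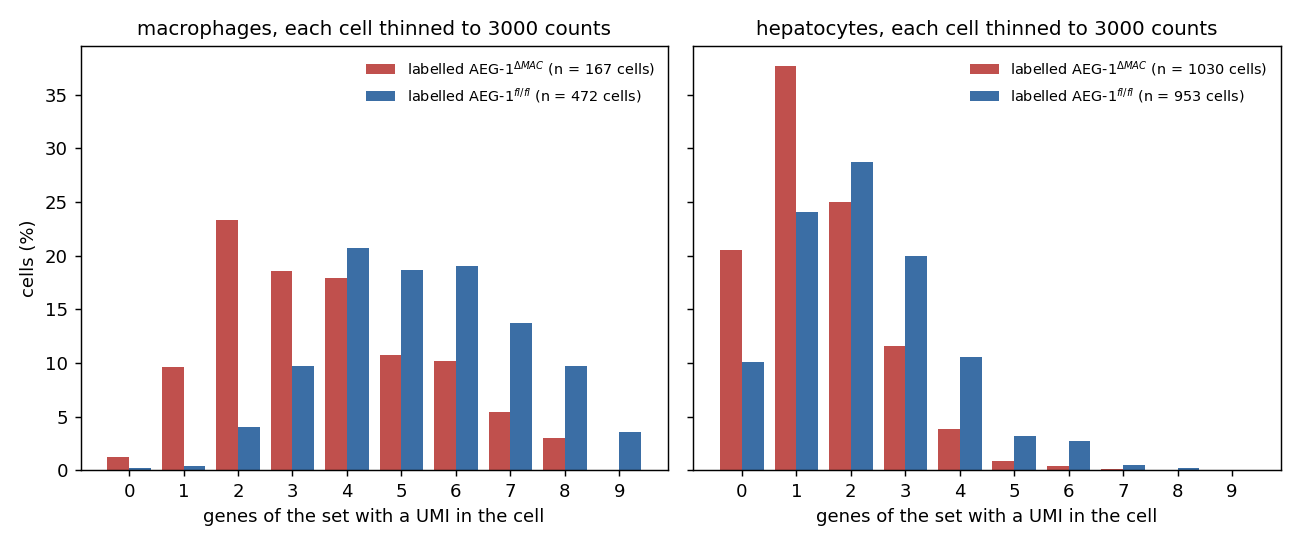
Share of macrophages, in percent, by the number of the 9 genes with at least 1 count in a cell after thinning to 3000 counts, for 167 macrophages of the AEG-1 ΔMAC-labelled library and 472 of the AEG-1 fl/fl-labelled library. The median was 3 genes in the former and 5 in the latter.

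Members were often found in the same cell. At 3000 counts, 49 of 167 macrophages of the AEG-1 ΔMAC-labelled library had at least 5 of the 9 members, or 29.3% (22.6% to 36.9%), against 306 of 472, or 64.8% (60.3% to 69.1%), in the AEG-1 fl/fl-labelled library. At least 7 members were found in 8.38% and 27.1%. The median macrophage had 3 members in the former and 5 in the latter. In other classes at the same depth, at least 5 members were found in 1.36% and 6.61% of hepatocytes, 0.926% and 7.60% of endothelial cells and 4.65% and 9.83% of stellate cells, and in 1 of 23 and 11 of 73 cholangiocytes (4.35% and 15.1%) and 0 of 23 and 3 of 39 T and NK cells. Several members together were thus more often seen in macrophages than in these 5 classes.

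Of the 36 pairs of members, 33 in the AEG-1 ΔMAC-labelled library and 32 in the AEG-1 fl/fl-labelled library were found together in more macrophages than the product of their shares. The median ratio to that product was 1.26 and 1.05, from 0.827 to 2.18 and from 0.991 to 1.31. The excess was thus small for most pairs, and smaller where the single shares were high. Gpnmb and Trem2 had the highest phi coefficient in the AEG-1 ΔMAC-labelled library, 0.436, being together in 26 of 167 cells, or 15.6% against a product of 7.15%. In the AEG-1 fl/fl-labelled library they were together in 178 of 472 cells, or 37.7% against 31.5%, with a phi of 0.262, and Gpnmb and Cd63 had the highest phi, 0.298. Cd63 and Itgax had a phi of 0.323 in the AEG-1 ΔMAC-labelled library, and Cd9 and Itgax 0.251 in the AEG-1 fl/fl-labelled library. Pairs with Spp1 had a median phi of 0.0273 and 0.0260, beside 0.197 and 0.0957 for the other pairs, while pairs with Psap had a median of 0.105 and 0.0261, the latter as low as that of Spp1. These coefficients are over cells of 1 library at 1 depth and describe that library only.

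Macrophages with Gpnmb carried more of the other members. In the AEG-1 ΔMAC-labelled library, 57 macrophages with a Gpnmb count had a mean of 4.40 of the other 8 members and 110 without had 2.67, and in the AEG-1 fl/fl-labelled library 312 with it had 5.07 and 160 without had 3.95. Trem2 was counted in 45.6% of macrophages with Gpnmb and 8.18% of those without in the AEG-1 ΔMAC-labelled library, and in 57.1% and 29.4% in the AEG-1 fl/fl-labelled library. Timd4, a marker of long-resident Kupffer cells, was counted in 4.81% (2.72% to 7.81%) and 18.8% (13.02% to 25.7%) of these cells in the AEG-1 fl/fl-labelled library, and in 14.0% (6.26% to 25.8%) and 21.8% (14.5% to 30.7%) in the AEG-1 ΔMAC-labelled library. Cells with Gpnmb thus had Timd4 less often in the AEG-1 fl/fl-labelled library, while the intervals overlapped in the AEG-1 ΔMAC-labelled library.

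Itgax differed with the Kupffer cell marker Clec4f and the monocyte receptor Ccr2. Clec4f itself was counted in 72.5% and 52.8% of thinned macrophages and in 21.8% and 14.0% of hepatocytes. Itgax was counted in 12.4% of macrophages with Clec4f and 32.6% of those without in the AEG-1 ΔMAC-labelled library, and in 26.5% and 53.4% in the AEG-1 fl/fl-labelled library. With Ccr2 and without it the shares were 34.3% and 13.6% in the AEG-1 ΔMAC-labelled library, and 56.6% and 30.4% in the AEG-1 fl/fl-labelled library. Itgax thus had the higher share in cells without Clec4f and in cells with Ccr2, with intervals that did not overlap in the AEG-1 fl/fl-labelled library and overlapped slightly in the AEG-1 ΔMAC-labelled library. The shares of Trem2 were closer, as it was counted in 20.7% with Clec4f and 21.7% without in the AEG-1 ΔMAC-labelled library, and in 43.8% and 52.0% in the AEG-1 fl/fl-labelled library. With Ccr2 and without it Trem2 was in 17.1% and 22.0%, and in 39.6% and 51.8%, the other way from Itgax. The intervals of Trem2 overlapped in both splits and both libraries. Gpnmb was counted in 62.2% of cells with Clec4f and 70.4% without in the AEG-1 fl/fl-labelled library, at a mean of 3.26 and 7.54 counts per thinned cell. In the AEG-1 ΔMAC-labelled library its shares were close, at 33.9% and 34.8%, with means of 1.47 and 2.28 counts. Within cells with Clec4f and within cells without it, Gpnmb, Trem2 and Itgax each had the lower share in the AEG-1 ΔMAC-labelled library.

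Genes related to the members were taken from lists written with an earlier account of these data known. Across 108 of them with enough counts in macrophages, 11 were over 2-fold lower in the AEG-1 ΔMAC-labelled library, 0 were over 2-fold higher and 93 had a log2 ratio below 0, with a median of −0.41. Of all genes with at least 20 counts, 2.86% were over 2-fold lower and 51.2% were below 0. In the Trem2 signalling list, 0 of 9 were past 2-fold and 9 were below 0, with a median of −0.33. Tyrobp, the Trem2 adaptor, was at 1073 and 1367 CPM, and Apoe, a Trem2 ligand, at 31426 and 39442 CPM. The partners of Trem2 thus differed less than Trem2 itself.

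Among other lipid-associated macrophage genes, 5 of 21 were over 2-fold lower and 0 higher, with a median of −0.55. Fabp5, a fatty acid carrier, was at 45.0 and 153 CPM, and Lpl, which releases fatty acids from triglycerides, at 1025 and 2635 CPM. Mmp13, a collagenase, had 18 and 328 counts, a log2 ratio of −2.91 (−3.68 to −2.22). The other members of the list past 2-fold were Emp1, at −1.84, and Atp6v0d2, at −1.85. Plin2, the coat protein of lipid droplets, was at 651 and 694 CPM, which is a log2 ratio of −0.09, so it was not lower in step with Lpl and Fabp5.

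Of the cathepsins beside Ctsd, 1 of 11 was over 2-fold lower (Ctsk, with 19 and 129 counts) and the median was −0.51. Ctsb and Ctss, both cysteine proteases, were at 3503 and 6461 CPM and at 2716 and 4703 CPM. Of the other lysosomal hydrolases, which include the enzymes that saposins assist, 1 of 17 was past 2-fold (Gla, at 24.4 and 65.4 CPM) and 16 were below 0, with a median of −0.47. Of the lysosomal membrane and acidification genes, 2 of 17 were past 2-fold (Atp6v0d2 and Sort1) and 17 were below 0, with a median of −0.35. Most lysosomal genes were lower by less than 2-fold, a smaller difference than that of Ctsd. The MiT/TFE transcription factors, which drive lysosomal genes, had 0 of 4 past 2-fold, a median of −0.17 and their lowest ratio at Mitf, −0.98 (−1.36 to −0.62).

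Beside the 2.86% and 51.2% of all genes given above, the lists of relatives of the surface members were mixed. Of the other tetraspanins, 1 of 8 was past 2-fold (Tspan3, at 58.0 and 116 CPM) and the median was 0.01. Of the other leukocyte integrin chains, 2 of 6 were past 2-fold, Itgam at 68.9 and 176 CPM and Itgad with 3 and 22 counts, 5 were below 0 and the median was −0.30. Of the list of other galectins with the galectin-3-binding protein Lgals3bp, 0 of 5 were past 2-fold, with a median of −0.13, and Lgals3bp was at 586 and 1112 CPM. Of 9 osteopontin receptors, 0 were past 2-fold and 8 were below 0, with a median of −0.18, and Cd44 was at 432 and 489 CPM. The lists of Gpnmb relatives and partners (0 of 3 past 2-fold, median −0.18) and of cholesterol efflux genes (0 of 5, median −0.33) held no gene past 2-fold. Resident Kupffer cell markers ran the other way, with 0 of 7 over 2-fold lower, 1 over 2-fold higher (Marco, 1.66) and a median of 0.38. Of 5 monocyte markers 0 were lower and 1 higher past 2-fold (Plac8, 1.25), and 2 were below 0, Ccr2 at −0.73 (−0.90 to −0.56) and F13a1 at −0.47, with an interval that reached past 0. Their median, 0.26, was that of Fn1. Of 10 macrophage genes outside the gate 0 were past 2-fold, with a median of −0.48.

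The genes outside the 9 members whose levels were most like those of each member were found by Pearson correlation of log2(CPM + 10). It ran over 16 points, each a class in 1 library, so points of a library share its depth and any free RNA. Gpnmb was closest to Grn, at 0.97, and Ctsb, at 0.95. Ctsd was closest to Clcn7 at 0.97, and Dcstamp, at 0.95. Lgals3 was closest to Ctsa and Cd68, at 0.96 each, and Psap to Abhd12 and Ccl6, at 0.96 each. Trem2 was closest to Pla2g15, at 0.96, and Hpgds, at 0.95, and Itgax to Wdr1, at 0.95, and Otulinl, at 0.94. Spp1 was closest to Cdh1, at 0.94, and to Tuft1, at 0.93. Cd9 was closest to Sort1, at 0.94, and Cd63 to Sh3pxd2b, at 0.90. Among the members themselves, Trem2 and Ctsd had the highest correlation, 0.96, and Spp1 and Lgals3 the lowest, −0.34.

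The members lie on 6 chromosomes of the mouse genome (build GRCm38, all protein-coding). Spp1 is at chr5:104435118-104441050, Gpnmb at chr6:49036546-49070929 and Cd9 at chr6:125460266-125494791. Itgax is at chr7:128129547-128150657, Ctsd at chr7:142375911-142388038, Psap at chr10:60277627-60302597 and Cd63 at chr10:128900989-128912822. Lgals3 is at chr14:47367751-47386160 and Trem2 at chr17:48346401-48354147. Cd9 and Ctsd are on the minus strand and the others on the plus strand. Members on the same chromosome are far apart and do not overlap.

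Promoters of the 9 members, from 250 bases before to 50 after a RefSeq start (build GRCm38.p6), were searched on both strands, and 11 of 32851 promoters belonged to them. The motifs were chosen with the sequences in view and are those of factor families known in macrophages. CACGTG, the core bound by MiT/TFE and other basic helix-loop-helix factors, was in 7.15% of all promoters and in that of 1 member, Ctsd, at 2 places. TGANTCA, bound by AP-1 and, within longer sites, Maf factors, was in 7.81% of all promoters and in those of 4 members, Gpnmb, Itgax, Psap and Trem2. GAGGAAG, an ETS core of the kind bound by PU.1, was in 13.6% of all promoters and in those of 3 members, Spp1, Cd63 and Trem2. A match describes the sequence and shows no binding. The matches of CACGTG and TGANTCA are shown because those motifs belong to factors tied to lysosomal and macrophage genes, with 30 bases around each, 5′ to 3′ on the strand of the gene and the motif in capitals. Those of Ctsd are on the minus strand at chr7:142388048-142388077, with the motif at −245 from the start, and at chr7:142387908-142387937, with the motif at −98. The others are on the plus strand, that of Gpnmb at chr6:49036515-49036544, with the motif 8 bases after the start, that of Itgax at chr7:128129483-128129512, with the motif at −56, that of Psap at chr10:60277599-60277628, with the motif at −18, and that of Trem2 at chr17:48346381-48346410, with the motif at −9.
Ctsd, distal: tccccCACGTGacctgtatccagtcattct
Ctsd, proximal: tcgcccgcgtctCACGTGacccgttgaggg
Gpnmb: ccaggggcaagTGACTCAtgagcacgagtt
Itgax: cccacctcctcTGAGTCAcgctgacaactt
Psap: ctgcgcgacgcTGAGTCAagctgcgcccag
Trem2: ttctccctcctTGAATCAcagcgcctaccc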

How the data were processed

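Both libraries were used as deposited: whole-number counts of probe molecules per gene and cell, which the authors made with Cell Ranger 7.1.0 on mm10, per the submitters' processing notes. The methods of the study name another version of Cell Ranger. No count was normalised before deposit. The 9 members and all gene lists were chosen with earlier results of these data known.

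Cells were kept with 100 genes or more and no more than 10% of counts from mitochondrial genes. A class needed at least 2 of its markers and a summed rate of at least 10 per 10000 counts (macrophages, cholangiocytes, T and NK cells, dendritic cells) or 20 (endothelial cells, stellate cells, B cells, neutrophils), rates set after seeing the data. Hepatocytes passed no gate, had at least 10000 counts and had at least 10% of them in 26 hepatocyte genes. Clec9a and Zbtb46 were dropped from the dendritic cell gate after the data were seen, leaving 6 of 8 markers. Among the 10 genes with the highest fold in each class, 0 were markers of another class, and the markers of the class itself numbered 0 in macrophages and stellate cells of both libraries and in cholangiocytes of the AEG-1 fl/fl-labelled library, and 1 to 5 elsewhere. Cx3cr1, Ly6c2, Mmrn2 and Ccnb1 were not analysed here. The values of a further marker in the cholangiocyte list are not reported here.

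Counts were summed per class and library, and CPM is that sum per 1000000 counts of the class. Intervals are 95% (exact Poisson for levels, Clopper-Pearson for shares and for ratios given the summed count). Ratios over all genes used genes with at least 20 summed counts, without mitochondrial genes. With 1 library per group no test was made. The named genes were the 9 members, any gene of the related lists, Mtdh and Lyz2, and for each member the 3 genes most correlated with it among genes other than the members with at least 200 counts, of which up to 2 are printed. The split by Clec4f and Ccr2 was chosen after values were seen. The calculation of ratios was tested on simulated data. Python 3.11.15, numpy 2.4.6, scipy 1.17.1, pandas 2.3.3 and matplotlib 3.10.9 were used, with R 4.3.3, edgeR 4.0.16 and DESeq2 1.42.0 for other scalings. Gene positions are from GENCODE and promoters from RefSeq.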

Additional observations from a re-analysis of the deposited data

Results flagged for a closer look

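Spp1 differed little between the libraries in cholangiocytes and was lower in the AEG-1 ΔMAC-labelled library in macrophages and other classes. Its log2 ratio of the AEG-1 ΔMAC-labelled library over the AEG-1 fl/fl-labelled library was 0.29 in cholangiocytes (28 and 88 cells, 0.09 with a mean over cells) and −3.00 in macrophages (200 and 539 cells). It was −2.71 in endothelial cells, −2.44 in stellate cells, −1.72 in hepatocytes and −2.67 in cells that passed no gate and were not hepatocytes. At the share of hepatocyte genes in macrophages, the hepatocyte level of Spp1 comes to 34.9 of the 38.0 CPM in macrophages of the AEG-1 ΔMAC-labelled library. Each group had 1 library, and the difference was not tested.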

How the results depend on the processing

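No paired analysis was possible because each group had 1 library, and for the same reason no library could be left out in turn. The median log2 ratio of the members in macrophages, −1.29, lay between −1.38 and −1.17 under 10 alternatives, of which the gate at 5 per 10000 and the removal of the 10 deepest macrophages were chosen after seeing the data. Members over 2-fold lower numbered 7, or 6 with a mean over cells and with thinned cells. Other scalings (TMM, DESeq2 factors, a total without hepatocyte genes), a stricter cell filter and keeping cells of several gates left 9 of 9 members within their counting intervals. The mean over cells and thinning moved 7 members each, the gate at 5 moved 3, the removal of the deepest cells 4 and a gate of 3 genes 1, with 0 reversed under any. Ctsd fell short of 2-fold with a mean over cells, at −0.81, and with thinned cells, at −0.96. Spp1 was at −2.35 and −2.57 under these, in place of −3.00, Cd9 at −1.45 and −1.87 in place of −1.29, and Lgals3 ranged from −0.75 to −0.21.

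The share of all genes over 2-fold lower was 1.74% in place of 2.86% with at least 50 counts, a filter that tests fewer genes. It was 3.47% with at least 1 summed count and a prior count of 1. The share of macrophages with at least 5 members depended on depth: it was 52.9% and 86.6% at 6000 counts and 15.4% and 39.5% at 1500, the AEG-1 ΔMAC-labelled library first. The log2 ratio of Spp1 in cholangiocytes over macrophages in the AEG-1 fl/fl-labelled library was 5.73 in place of 5.03 with a mean over cells, which gives less weight to deep cells. The log2 ratio of Spp1 between the libraries in cholangiocytes was 0.09 with a mean over cells and 0.32 without the cell with the most Spp1 of each library, both added after seeing the data, in place of 0.29. Members highest in macrophages numbered 7 in the AEG-1 ΔMAC-labelled library, or 6 with a mean over cells, and a dendritic cell gate of all 8 markers, added after seeing the data, left their numbers at 7 and 6. The cause of the shifts was not tested.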
